A study of Mus musculus with 10 samples.

Results

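Ribosome biogenesis genes are those that the authors' expression table assigns to the KEGG pathway of ribosome biogenesis in eukaryotes (ko03008), 78 of its 21959 genes. They were measured by mRNA sequencing in 10 tumors, and the question put to them was whether they differed between tumors of exercised and non-exercised mice and whether their level moved with that of Myc. The tumors came from 4T1, a cell line of mouse mammary carcinoma, injected under the skin of the abdomen of female BALB/c mice aged 5 to 6 weeks when obtained. The 5 mice of the exercise group (E1 to E5) ran voluntarily and the 5 of the non-exercise group (NE1 to NE5) were kept under normal husbandry, and the tumors were taken at day 21. The same line and strain stand in both groups, so that each tumor was a syngeneic graft of 1 cell line in a host with an intact immune system, and the RNA came from whole tissue, host cells included. By the table, 72 of the 78 genes passed a filter on low counts and could be tested, among 13517 of all genes.

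A ribosome is built in the nucleolus. RNA polymerase I transcribes a long precursor RNA, which small nucleolar ribonucleoproteins (snoRNPs) modify, nucleases cut, and a succession of assembly factors folds together with ribosomal proteins into a small and a large subunit that are exported to the cytoplasm. Myc is a transcription factor that binds DNA as a heterodimer with Max, often at the letters CACGTG (the E-box), and genes of ribosome biogenesis are among its best known targets in growing and malignant cells.

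Between 15045613 and 23092251 reads were counted per tumor, and the members took 0.541% to 0.587% of them in E and 0.520% to 0.613% in NE. Levels of single genes are given as FPKM, read counts scaled by gene length and library total, and levels compared between tumors as CPM, which are scaled to the library total with the TMM factor. Summed levels of marker lists are CPM scaled to the library total alone, without that factor. The gene lengths of the table exceeded the longest coding transcript of GRCm38 for 66 of the 72 members (median ratio 1.36), so that FPKM orders genes only roughly. Of the epithelial markers, Krt19 had 4.59 to 12.6 FPKM and Cdh1 1.42 to 4.44 FPKM, while Krt5, Krt14, Cldn4 and Krt8 had no read in 8, 4, 6 and 1 of the 10 tumors. At their highest, Krt14 reached 30.3 FPKM and Krt5 13.0 FPKM. Summed over 9 epithelial markers, the level was 130 CPM in NE5 and 20.9 to 30.5 CPM in the other tumors. The summed level of 12 skeletal muscle markers was 304 to 4329.6 CPM in E and 6.28 to 28837 CPM in NE, lowest in NE1 (with Pvalb, Myh2 and Myh4 at 0) and highest in NE4. That of 8 fibroblast markers was 2235 to 15863 CPM in E, highest in E5, and 1059 to 4807 CPM in NE.

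The members ranged from a mean of 1.89 to 177 FPKM over the 10 tumors, with a median of 14.9 against 6.40 for all genes tested. Ran, the GTPase that gives nuclear transport its direction, was the highest with 163 to 189 FPKM, followed by Nhp2 (72.6 to 89.6 FPKM), a protein of the H/ACA snoRNP, and Snu13 (52.6 to 65.5 FPKM), which binds the kink-turn of box C/D snoRNAs. Rpp40 (1.62 to 2.31 FPKM), a subunit of RNase P, the exonuclease Rexo5 (1.87 to 2.74 FPKM) and Utp14b (1.71 to 2.99 FPKM), a retrogene copy of Utp14a, were the lowest of those tested. The 6 members that did not pass the filter were Fbll1, a paralog of fibrillarin with no read in any tumor, Nxf2 (0 to 5 reads), Rpp25 (1 to 10 reads), Rasl2-9 (2 to 10 reads), 1700009N14Rik (0 to 1 read) and Nxf7, which had 2 to 70 reads with the most in NE4. Rasl2-9 and 1700009N14Rik are close copies of Ran, so that reads of the 3 genes could have been split between them.

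The promoters of some members held the E-box. RefSeq promoter windows (GRCm38.p6, 250 bases before to 50 bases after the start) were found for 65 of the 78 members, and 14 of them (21.5%) held the letters CACGTG, which read alike on both strands. The share among all 27025 genes with a window was 8.09%, but these include genes not tested in the tumors. Of the tested genes with a window, 1205 held the letters and 9496 did not. For the tested members these counts were 12 and 47, and the difference in share was not tested. The 14 were Imp4, Mdn1, Nmd3, Nxf2, Ran, Rasl2-9, Rexo2, Rpp38, Rrp7a, Utp14b, Utp18, Utp4, Wdr43 and Xrn2. Windows of 30 bases are shown for 5 members named further on, 5′ to 3′ in the direction of the gene, with the matching letters in capitals. The first capital lay 20 bases before the start in Utp18, 118 before it in Ran, 114 before it in Nmd3, and at base 16 after it in Utp4 and 22 after it in Xrn2.
Utp18 (RefSeq GRCm38.p6, minus strand, chr11:93885769-93885798): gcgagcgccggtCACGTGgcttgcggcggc
Utp4 (RefSeq GRCm38.p6, plus strand, chr8:106893643-106893672): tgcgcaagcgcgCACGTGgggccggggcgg
Ran (RefSeq GRCm38.p6, plus strand, chr5:129020026-129020055): gctcggccggccCACGTGacccgccgcccc
Nmd3 (RefSeq GRCm38.p6, plus strand, chr3:69721929-69721958): cgccccttgctaCACGTGtattctttgacc
Xrn2 (RefSeq GRCm38.p6, plus strand, chr2:147013008-147013037): ggccgctgaacgCACGTGggaggaagtgct

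Myc itself (ENSMUSG00000022346, chromosome 15, plus strand, 61985391 to 61990374 in GRCm38) had 52.4, 43.5, 46.5, 37.7 and 42.7 FPKM in E1 to E5 and 54.1, 46.0, 49.5, 35.0 and 47.3 FPKM in NE1 to NE5. The groups overlapped throughout, with the lowest and the highest tumor both in NE (NE4 and NE1). The means were 44.6 ± 5.43 FPKM in E and 46.4 ± 7.09 FPKM in NE (mean ± SD, n = 5 each). The log2 fold change of E over NE was -0.085 ± 0.11 (FDR 0.927), where ± is the standard error and the FDR is edgeR's Benjamini-Hochberg adjusted p over all genes tested. For log2(CPM + 1) of Myc alone, an exact permutation test (two-sided) gave p = 0.492, where 0.00794 is the smallest p that 5 tumors against 5 allow. Over all 10 tumors Myc spanned a 1.44-fold range in CPM, with 1746 to 3395 reads behind the values. A slope on its level across all of them rests on about 0.52 log2 units. Slopes fitted within replicate numbers, given further on, rest on smaller differences. In bulk tissue, fewer cells of a type and less RNA per cell cannot be told apart, for Myc as for the members.

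No ribosome biogenesis gene differed between E and NE at an FDR of at most 0.05, and neither did any other gene (0% of those tested, smallest FDR 0.897, and 3 genes by DESeq2, none of them a member). Of the 72 members tested, 60 had a negative log2 fold change (lower in E) and the median was -0.091, against 7295 of the 13516 genes tested besides Myc and a median of -0.014. At an unadjusted p of at most 0.05, 6 members were lower in E and none higher. Among all genes tested, 2.29% were lower and 2.57% higher at that p. The differences were small, with 64 of the 72 members within 0.2 log2 units of no change. The count of 6 turned on single tumors. It was 1 without E5, 2 without NE3, 3 without E2, and 11 without E3 or without NE4. Of all genes, 166 were lower in E at that p without E5, 189 without NE3 and 188 without E2. They were 431 without E3 and 307 without NE4, against 310 with all 10 tumors. The count of members was 2 with library size in place of TMM. There, 160 of all genes were lower and 472 higher at that p against 310 and 347 with TMM. Of the marker lists, 2 of 7 neutrophil and 1 of 10 macrophage or monocyte markers were higher and 2 of 4 epithelial markers lower in E at that p. E5 stood apart in the neutrophil list, where its summed level reached 318 CPM. No other tumor exceeded 51.9 CPM (NE4), and the median E tumor (39.8 CPM) lay slightly below the median NE tumor (41.5 CPM). Whether the 2 neutrophil markers stay at that p without E5 was not tested. No marker of the fibroblast (8), endothelial (8), T cell (7) and skeletal muscle (11) lists was at that p, although all 11 of the last were lower in E by sign (median -2.37). With the muscle score as a covariate, 7 members and 438 of all genes were lower in E at that p. With the replicate number as a block, 9 members and 334 of all genes were. Whether the replicate number marks the matched pairs of which the study speaks is not given in the sources used here.

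The 6 members were Wdr3, Utp14a, Rcl1, Bms1, Ran and Nxf1, and Wdr3 had the smallest p. Wdr3, a WD40-repeat protein of the UtpB complex (chromosome 3, minus strand, 100138180 to 100162407 in GRCm38), had 68.2, 64.7, 67.2, 66.3 and 63.9 CPM in E1 to E5 and 72.2, 72.8, 75.2, 73.4 and 69.5 CPM in NE1 to NE5. Its groups did not overlap in CPM, the only such member, with E lower, while 0.289% of all genes did so with E lower and 0.436% with E higher. In FPKM, which holds no TMM factor, E1 (13.2) lay just above NE5 (13.1). The log2 fold change of Wdr3 was -0.14 ± 0.041 (FDR 0.897) and its unadjusted p 0.00730. Reads of Wdr3 cannot be told from those of Gdap2 and Spag17, which overlap it on the other strand, if the counting did not use the strand, and among the other tested members named here the same holds for Nop56 with Idh3b, Dkc1 with Mpp1, Gnl3 with Pbrm1, Heatr1 with Lgals8, Nhp2 with Rmnd5b, Gnl2 with Dnali1, Rexo5 with Eri2 and Rrp7a with Serhl. On the same strand, Utp14b overlaps Acsl3, and Ak6 overlaps Taf9.

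Utp14a, a factor of the small-subunit processome, had 13.1, 13.9, 15.7, 15.2 and 12.7 FPKM in E1 to E5 and 15.9, 15.9, 16.7, 14.02 and 17.1 FPKM in NE1 to NE5. Its E tumors and NE tumors overlapped, as E3 and E4 lay above NE4, and its log2 fold change was -0.20 ± 0.077 (FDR 0.897). Rcl1, which takes part in an early cleavage of the precursor, had 24.5, 24.1, 21.1, 23.1 and 21.7 FPKM in E1 to E5 and 29.4, 23.6, 25.2, 24.0 and 24.3 FPKM in NE1 to NE5. NE1 stood above all others, and the log2 fold change was -0.17 ± 0.067 (FDR 0.897). Ran had 188, 168, 166, 168 and 163 FPKM in E1 to E5 and 185, 181, 189, 181 and 179.6 FPKM in NE1 to NE5. E1 was level with the highest NE tumors and the other 4 E tumors lay under all of NE, with a log2 fold change of -0.13 ± 0.053 (FDR 0.897). For Bms1, a GTPase of the small-subunit processome, the levels were 17.0 to 20.2 FPKM and the log2 fold change -0.13 ± 0.052 (FDR 0.897). For Nxf1, the main exporter of mRNA, which the pathway lists among its transport factors, they were 29.4 to 34.0 FPKM and -0.11 ± 0.048 (FDR 0.897). With the replicate number as a block, Wdr3, Rcl1, Bms1 and Utp14a had an unadjusted p of at most 0.05, while that of Ran was 0.0540 and that of Nxf1 0.0633. Of the members with a positive log2 fold change, the exonucleases Rexo1 (0.12) and Xrn1 (0.15), the GTPase Gnl3l (0.057), the RNase P protein Pop7 (0.12), Nxt2 (0.099) and the large-subunit factor Eif6 (0.027) had the smallest p, from 0.161 to 0.724 unadjusted, and the sign of Eif6 turned without E1 or without NE2.

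**Figure D1:**
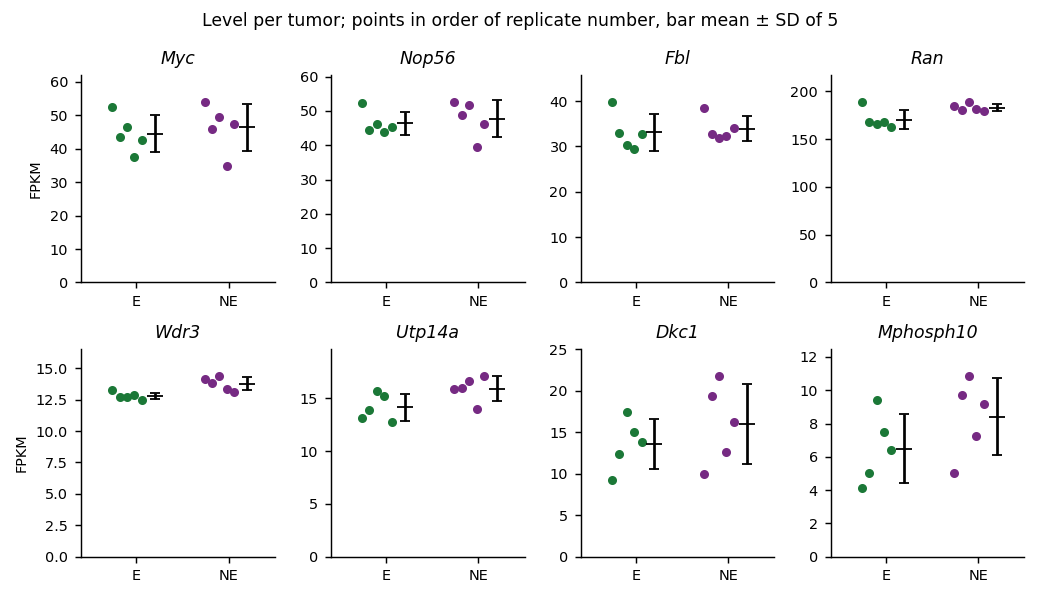
Level in FPKM (y axis from 0) of Myc and 7 members in each of the 5 E and 5 NE tumors, with the mean ± SD of the group beside the points. Wdr3 and Ran sit slightly lower in E within a narrow range, whereas the points of Dkc1 (9.28 to 17.4 FPKM in E) and Mphosph10 (4.11 to 9.39 FPKM in E, 5.03 to 10.9 FPKM in NE) lie far apart within both groups.

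The slope of each gene on log2(CPM + 1) of Myc over the 10 tumors was used to compare the members with Myc, where a slope of 1 means that a gene changes by the same factor as Myc, and slopes are given ± standard error. No gene other than Myc had a slope at an FDR of at most 0.05 by edgeR (0% of 13516, smallest FDR 0.187), whereas DESeq2 called 247, of which 1 was a member (Nop56), and edgeR without E4 called 287, none of them a member. Of the 72 members, 63 had a positive slope, with a median of 0.26 against 0.022 for all genes, of which 7020 were positive. At an unadjusted p of at most 0.05, 11 members had a positive and none a negative slope. Among all genes, 4.32% had a positive and 8.73% a negative slope at that p. The median of the members stayed positive in all alternatives run, from 0.23 with DESeq2 to 0.79 with the replicate number as a block. The 11 became 19 with that block, 17 without NE4, 6 with the skeletal muscle score as a covariate, and 8 with the group as a covariate. The shares of all genes in these fits are not given here, and the 4.32% holds for the main fit only. Since each member and Myc come from the same library and share its scaling factor, these slopes are not free of errors that move both.

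Nop56 had the smallest p of the members. It is a core protein of the box C/D snoRNP, which guides 2′-O-methylation of ribosomal RNA, and its gene (chromosome 2, plus strand, 130274430 to 130279313 in GRCm38) holds 5 annotated snoRNA genes. Its level was 212, 178, 192, 177 and 182 CPM in E1 to E5 and 212, 202, 213, 171 and 192 CPM in NE1 to NE5. The tumors low in Myc (NE4, E4, E5 and E2) were also the lowest in Nop56, and the tumors high in Myc (NE1, E1 and NE3) the highest. The slope was 0.60 ± 0.13 (FDR 0.187) with an unadjusted p of 0.000775, and the FDR by DESeq2 was 0.00174. Between the groups, Nop56 had 46.4 ± 3.41 FPKM in E and 47.8 ± 5.31 FPKM in NE (mean ± SD, n = 5 each) and a log2 fold change of -0.072 ± 0.076 (FDR 0.906).

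Csnk2a2, a catalytic subunit of casein kinase 2, had 120.3, 111, 119, 106 and 103 CPM in E1 to E5 and 134, 116, 116, 107 and 116 CPM in NE1 to NE5. Its slope was 0.50 ± 0.14 (FDR 0.194). Nob1, the endonuclease that makes the last cut of the small-subunit RNA, had 61.2, 51.5, 54.1, 48.3 and 54.1 CPM in E1 to E5 and 68.1, 58.8, 54.2, 52.2 and 58.2 CPM in NE1 to NE5 and a slope of 0.64 ± 0.18 (FDR 0.194). In both genes NE1, the tumor with the most Myc, was the highest. Utp18, of the UtpB complex and with an E-box in its promoter, had 60.8, 50.5, 61.2, 52.0 and 52.8 CPM in E1 to E5 and 60.4, 63.4, 69.2, 53.9 and 67.8 CPM in NE1 to NE5 and a slope of 0.65 ± 0.22 (FDR 0.231). Its highest tumors were NE3 and NE5 instead, and its slope was 2.01 ± 0.45 with the replicate number as a block. Nxt1, the cofactor of Nxf1, had a slope of 0.52 ± 0.17 (FDR 0.225) and Utp4 of the UtpA complex, also with an E-box, one of 0.50 ± 0.19 (FDR 0.293). With the replicate number as a block, the unadjusted p of Utp18 was 0.00361, and those of Nop56, Csnk2a2, Nob1, Nxt1 and Utp4 lay between 0.108 and 0.332. The other 5 of the 11 were Eif6 (0.43 ± 0.17), Wdr36 (0.32 ± 0.13) of UtpB, Gar1 (0.42 ± 0.18), Nat10 (0.38 ± 0.16) and Nvl (0.51 ± 0.22), an ATPase of large-subunit assembly.

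The negative slopes with the smallest p were those of Nxt2 (-0.69 ± 0.45), a cofactor of mRNA export, Pop5 (-0.43 ± 0.35) and Rpp30 (-0.23 ± 0.36) of RNase P, Xpo1 (-0.15 ± 0.36), Utp6 (-0.062 ± 0.24) of UtpB and Mphosph10 (-0.067 ± 0.85). The direction of 5 of them was not stable. With the replicate number as a block the slopes were positive for Mphosph10 (4.21), Xpo1 (2.37), Rpp30 (1.80), Utp6 (1.25) and Pop5 (0.37), and -0.40 for Nxt2. Without the block the FDR of the 6 genes ran from 0.556 to 0.983 and their unadjusted p from 0.153 to 0.939. Xpo1, the exportin that carries both subunits out of the nucleus, had 199, 232, 253, 280.4 and 211 CPM in E1 to E5 and 215, 286, 291, 240.1 and 285 CPM in NE1 to NE5. It was lowest in E1, the tumor with the second most Myc, while E4, with little Myc, was the highest of the E tumors.

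**Figure D2:**
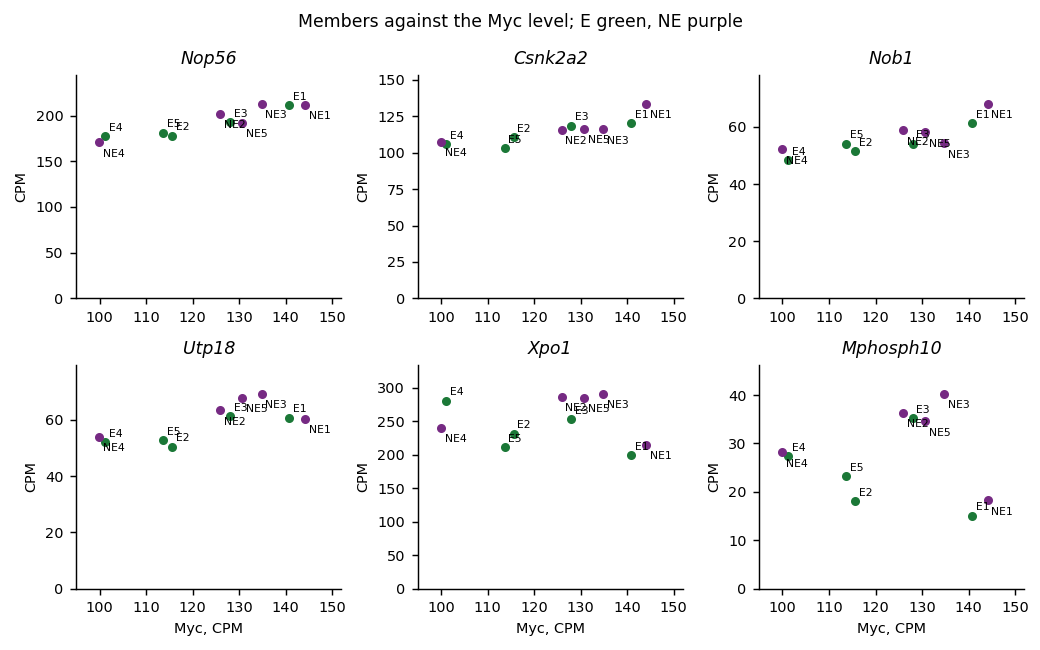
CPM of 6 members (y axis from 0) against CPM of Myc (x axis), 1 point per tumor. Nop56, Csnk2a2, Nob1 and Utp18 were chosen for the smallest p among positive slopes and lie higher on the right, whereas Xpo1 and Mphosph10 have E1 and NE1, the tumors with the most Myc, among their 3 lowest.

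The slopes of members with and without the E-box are given side by side, as a description. The median was 0.30 over the 12 tested members with the letters and 0.25 over the 47 without, of which 2 and 7 had a positive slope at an unadjusted p of at most 0.05. Over all genes tested it was 0.080 for the 1205 with and 0.017 for the 9496 without. The median log2 fold change of E over NE was -0.10 for members with and -0.093 for members without the letters.

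Across tumors, the median deviation of the 72 members from their own 10-tumor means was -0.058 in NE4, -0.056 in E4, -0.097 in E5 and -0.063 in E2 on the log2 scale, the 4 tumors with the least Myc. It was 0.068 in NE2, 0.037 in E3, 0.068 in NE5, 0.10 in NE3, 0.00035 in E1 and 0.036 in NE1, listed by rising Myc. By the median the 4 tumors with the least Myc were the 4 below 0, while E1 and NE1, with the most Myc, were not the highest. By the mean deviation of the members E1 lay below 0 as well (-0.054), lower than E4 (-0.047). RNA of other cell types had slopes on Myc too. All 11 tested skeletal muscle markers and 7 of 8 fibroblast markers had a negative slope at an unadjusted p of at most 0.05, as did 2 of 8 endothelial, 1 of 10 macrophage or monocyte, 1 of 7 T cell and 1 of 7 neutrophil markers, and no tested marker of those lists had a positive one at that p. Their part in the slopes of the members was not tested beyond the fit with the muscle score, in which the median slope of the members was 0.25, and the fit without NE4, in which it was 0.29.

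**Figure D3:**
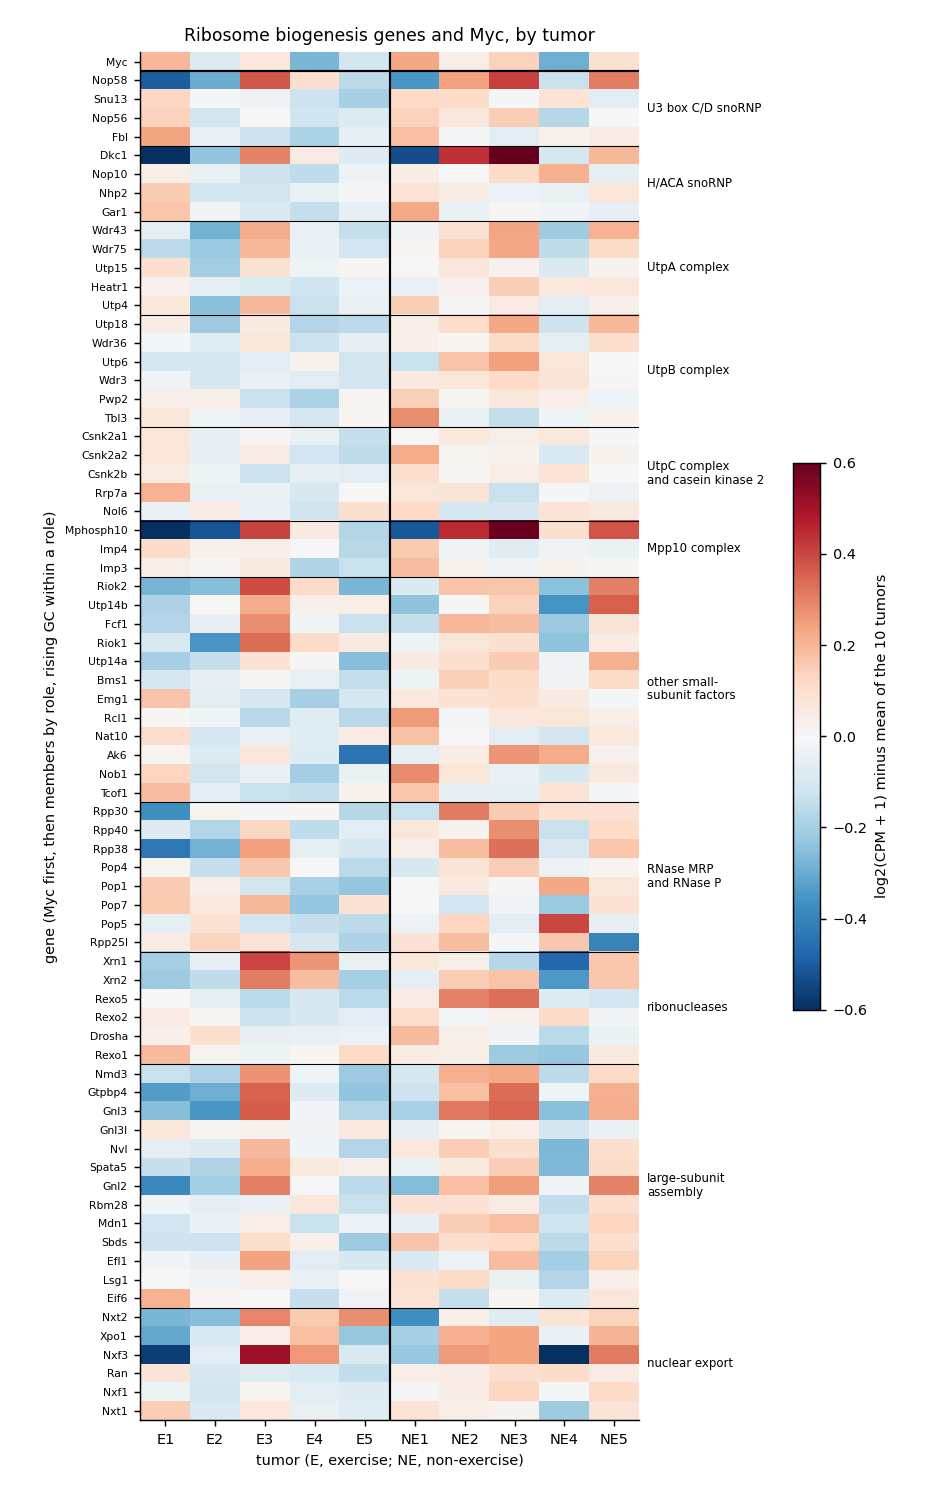
Deviation of log2(CPM + 1) from the mean of the 10 tumors (colour, cut at ±0.6) for Myc and the 72 members tested (rows, by role and by rising GC content within a role) in each tumor (columns). The strongest colours belong to Mphosph10, Dkc1, Nxf3 and Nop58 and run across both groups. In each of these 4 genes E1 and NE1 are among the 3 lowest tumors, and E3, NE2, NE3 and NE5 lie above the mean.

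The median spread of the members was below that of all genes. Their median SD over the 10 tumors was 0.13 on the log2(CPM + 1) scale against 0.18 for all genes, and 52 of the 72 lay under the latter. Related lists, described further on, had a similar or lower median SD. It was 0.13 for other nucleolar assembly factors, 0.12 for the RNA polymerase I machinery and 0.11 for proliferation genes. A few members varied much more. Mphosph10, the protein around which the Mpp10 complex is built, spanned 2.68-fold, with 15.0, 18.1, 35.2, 27.4 and 23.2 CPM in E1 to E5 and 18.3, 36.3, 40.3, 28.2 and 34.6 CPM in NE1 to NE5. E1, E2 and NE1 were the lowest and NE3, NE2 and E3 the highest, so that both groups spanned the range. Dkc1, the pseudouridine synthase dyskerin, spanned 2.38-fold with 37.8, 49.9, 72.7, 61.0 and 55.9 CPM in E1 to E5 and 40.5, 80.2, 89.9, 54.8 and 67.8 CPM in NE1 to NE5. It was again lowest in E1 and NE1 and highest in NE3 and NE2. The log2 fold changes were -0.41 ± 0.26 (FDR 0.897) for Mphosph10 and -0.26 ± 0.22 (FDR 0.897) for Dkc1, the largest standard errors of the members along with Nxf3. Nxf3, a paralog of Nxf1, Nop58, Gnl3, the kinase Riok2, the GTPases Gtpbp4 and Gnl2, the exonuclease Xrn1 and Rpp38 of RNase P followed by spread.

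The 10 members with the largest spread had a low GC content, as 9 of them were among the 36 members with the lowest (at most 47.9% of the longest coding transcript). The median deviation of these 36 members was -0.14 in E1, -0.12 in E2, -0.14 in E5, -0.099 in NE4, -0.034 in NE1 and -0.017 in E4, and 0.20 in E3, 0.16 in NE3, 0.11 in NE5 and 0.11 in NE2. The other 36 members moved less, from -0.098 in E4 to 0.088 in NE1. The same division ran through the whole table. In E1 the quintile of all genes with the lowest GC content lay at -0.23 and the quintile with the highest at 0.089, in NE1 at -0.19 and 0.079, and in E3 at 0.15 and -0.062. With an offset per tumor for GC content, the median SD of the members went from 0.13 to 0.11 and that of all genes from 0.18 to 0.16. The SD of Mphosph10 went from 0.47 to 0.36, that of Dkc1 from 0.40 to 0.30, that of Nop58 from 0.33 to 0.17 and that of Xpo1 from 0.20 to 0.073. In other members it rose, among them Csnk2a1 (0.066 to 0.11), Snu13 (0.11 to 0.14) and Wdr36 (0.078 to 0.11). In the fit with that offset, 8 members and 409 of all genes were lower in E at an unadjusted p of at most 0.05. Without the offset these were 6 and 310. At that p 14 members had a positive slope on Myc in the fit with the offset, for which the share of all genes is not given here. The median slope of the members was 0.27.

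**Figure D4:**
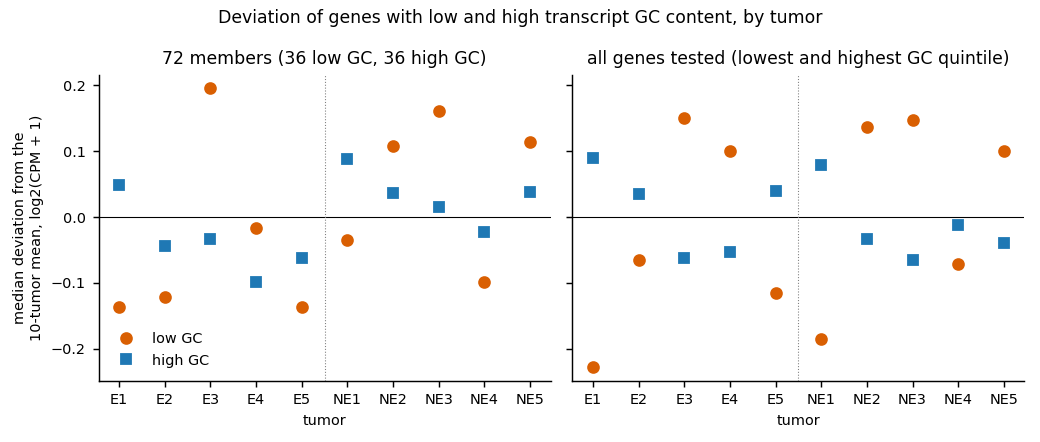
Median deviation from the 10-tumor mean, log2(CPM + 1), in each tumor (x axis) for the 36 members with low and the 36 with high GC content (left) and for the lowest and the highest GC quintile of all genes tested (right). In both panels the low-GC genes lie below the high-GC genes in E1, E2, E5, NE1 and NE4 and above them in the other 5 tumors.

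The members were then compared by role, from the snoRNP proteins to export. Of the 4 tested members of the box C/D snoRNP that carries U3, all 4 had a positive slope on Myc (median 0.35). Fbl, the methyltransferase fibrillarin, had 39.9, 33.1, 30.2, 29.5 and 32.8 FPKM in E1 to E5 and 38.6, 32.8, 31.8, 32.3 and 34.0 FPKM in NE1 to NE5. It was highest in E1 and NE1, the reverse of Nop58, which had 8.07, 9.36, 14.4, 12.2 and 10.3 FPKM in E1 to E5 and 9.01, 13.2, 15.0, 9.74 and 13.8 FPKM in NE1 to NE5. Their slopes were 0.44 ± 0.20 for Fbl and 0.093 ± 0.58 for Nop58. Nop58 and Nop56 form a pair in the same particle, and both hold snoRNA genes, as do Gnl3, Wdr43 and Dkc1. The 5 host members had a median SD of 0.28 and a median GC content of 44.3%, the other 67 a median SD of 0.13 and a GC content of 48.3%. The 4 members of the H/ACA snoRNP, which guides pseudouridylation, were all lower in E by sign (median -0.094), without a p of at most 0.05. Gar1 (0.42 ± 0.18) and Nhp2 (0.27 ± 0.15) had positive slopes, while Nop10 (0.0098 ± 0.22) and Dkc1 (-0.0048 ± 0.72) lay at 0 within their error.

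The complexes of the small-subunit processome assemble in order on the nascent RNA. All 5 members of UtpA, which binds first, had a positive slope, with the highest median of the 11 roles (0.41), and all 5 were lower in E by sign. Heatr1, its largest scaffold, varied little with 14.1 to 16.7 FPKM and a log2 fold change of -0.11 ± 0.049 (FDR 0.897). Of the 6 UtpB members, 5 had a positive slope (median 0.29), and all 6 were lower in E by sign, with a median of -0.12 and Wdr3 as the only one at an unadjusted p of at most 0.05. Pwp2, another WD40 scaffold, had 12.3 to 15.7 FPKM and a slope of 0.25 ± 0.18. The median slope of the 5 members of UtpC and casein kinase 2 was 0.11. Csnk2a1, the other catalytic subunit, had 20.3 to 23.3 FPKM and a slope of 0.11 ± 0.15, against 0.50 ± 0.14 for Csnk2a2, a difference that was not tested. The Mpp10 complex held both the most variable member, Mphosph10, and its partners Imp3 (35.6 to 46.7 FPKM) and Imp4 (6.13 to 7.69 FPKM), which stayed within narrow limits.

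Of the 12 other small-subunit factors, all 12 had a positive slope (median 0.26) and 10 were lower in E by sign, 3 of them at an unadjusted p of at most 0.05 (Utp14a, Rcl1 and Bms1). Nat10, the acetyltransferase of the small-subunit RNA, had 6.59 to 8.64 FPKM. Tcof1, the treacle protein, which links RNA polymerase I to early processing, had 26.8, 22.8, 21.0, 21.3 and 24.2 FPKM in E1 to E5 and 26.7, 22.3, 22.3, 23.4 and 22.7 FPKM in NE1 to NE5. Like Fbl it was highest in E1 and NE1, and its GC content (58.2%) was among the upper ones. The 8 tested proteins of RNase MRP and RNase P, which cut the spacer of the precursor and trim tRNA, had a median log2 fold change of -0.15, the lowest of the 11 roles, and none had a p of at most 0.05. Pop1, their largest protein, had 6.81 to 8.90 FPKM and a log2 fold change of -0.14 ± 0.090 (FDR 0.897). Among the 6 other ribonucleases, Xrn2, the nuclear 5′ to 3′ exonuclease, had 31.1, 33.0, 43.9, 41.2 and 31.8 FPKM in E1 to E5 and 35.1, 39.4, 40.4, 26.8 and 39.6 FPKM in NE1 to NE5. NE4 was the lowest and E3 the highest, and the log2 fold change was -0.029 ± 0.13 (FDR 0.983).

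All 13 large-subunit factors had a positive slope, with a median of 0.31, and 10 were lower in E by sign (median -0.072). Gnl3, the nucleolar GTPase nucleostemin, had 15.6, 14.8, 23.5, 18.4 and 16.6 FPKM in E1 to E5 and 16.4, 22.9, 23.5, 14.7 and 21.1 FPKM in NE1 to NE5 and a slope of 0.50 ± 0.48. Mdn1, the giant ATPase that strips factors from the particle, had 3.75 to 4.86 FPKM and a slope of 0.31 ± 0.21. Nmd3, the adaptor through which Xpo1 exports the large subunit, had 5.44 to 7.63 FPKM and a slope of 0.38 ± 0.32. Eif6, which keeps the subunits apart until the last step, had 19.96 to 26.1 FPKM and a slope of 0.43 ± 0.17 (FDR 0.311), and Sbds, which helps to release it, had 26.4 to 35.8 FPKM and a slope of 0.41 ± 0.23. Of the 10 export members only 6 could be tested, of which 4 had a positive slope. Nxf3 spanned 2.27-fold with 9.18, 13.3, 19.3, 16.5 and 13.0 FPKM in E1 to E5 and 11.8, 16.1, 16.1, 8.19 and 16.6 FPKM in NE1 to NE5, lowest in NE4 and E1 and highest in E3.

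**Figure D5:**
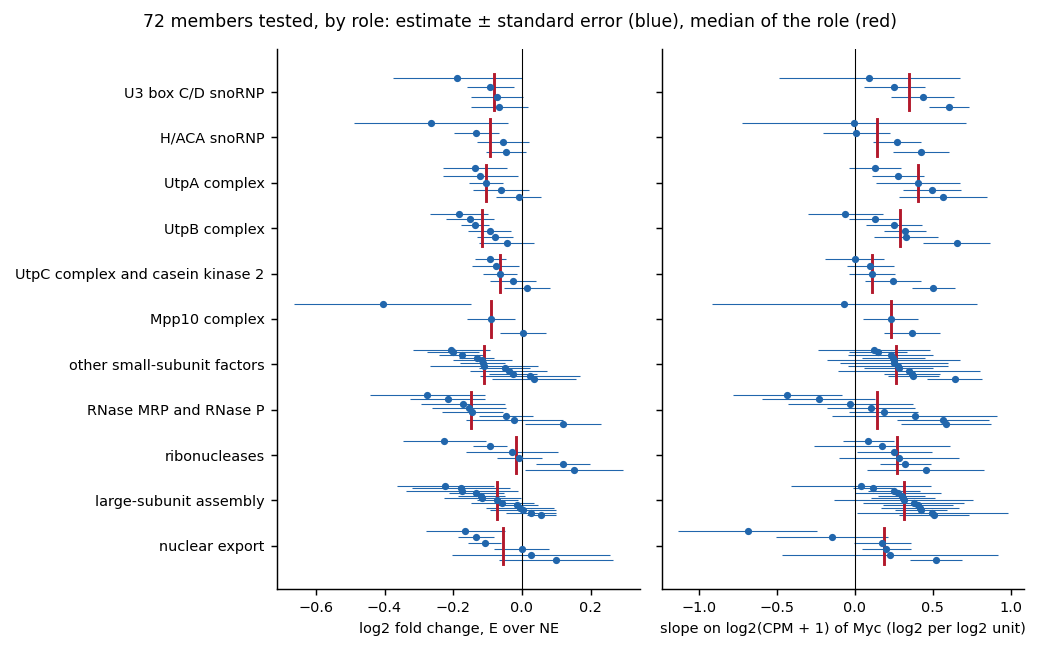
Log2 fold change of E over NE (left) and slope on log2(CPM + 1) of Myc (right) for the 72 members tested, grouped by role (rows), with standard errors as bars and the median of each role as a red line. The role medians lie between -0.15 and -0.018 on the left and between 0.11 and 0.41 on the right.

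Genes near the pathway but outside its KEGG list were compared by the same measures. Of 60 other nucleolar assembly factors, 57 had a positive slope on Myc (median 0.29), 14 of them and no negative one at an unadjusted p of at most 0.05, and 8 were lower in E at that p (median -0.081). Ppan, a factor of the large subunit, had 9.34 to 13.9 FPKM and a slope of 0.70 ± 0.16 (FDR 0.187). Of 20 genes of the RNA polymerase I machinery, 18 had a positive slope (median 0.20), 2 of them at that p, namely Polr1b, its second largest subunit, with 0.62 ± 0.15 (FDR 0.187), and Polr1e with 0.58 ± 0.24 (FDR 0.333). Polr2h, which all 3 nuclear polymerases share, was the only one lower in E at that p (-0.18 ± 0.072, FDR 0.897).

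Of 19 tested Myc targets outside ribosome assembly, 15 had a positive slope (median 0.34), 2 of them at an unadjusted p of at most 0.05, Cdk4 (0.42 ± 0.15) and Eif4a1 (0.37 ± 0.14). The median log2 fold change of this list was -0.081, and 3 were lower in E at that p, among them Hspd1, a mitochondrial chaperonin (-0.28 ± 0.075, FDR 0.897). Nme2 had 0.259 to 0.782 FPKM and did not pass the filter. Of 14 proliferation genes, 11 had a positive slope (median 0.14) and 13 were lower in E by sign (median -0.045), none with a p of at most 0.05 in either fit. In the network around Myc, Max, the partner that Myc needs to bind DNA, was steady with 30.2 to 35.4 FPKM and a slope of -0.020, and Mycn (0.132 to 0.560 FPKM) and Mycl (0.118 to 0.464 FPKM), the other members of the family, were low throughout. Of the 12 network genes other than Myc, 4 had a positive and 8 a negative slope. Mlxipl was the only one at an unadjusted p of at most 0.05 (-4.37 ± 1.33, FDR 0.208). Its level was low, from 0.157 to 1.77 FPKM, with 0.350 ± 0.193 FPKM in E and 0.570 ± 0.675 FPKM in NE (mean ± SD).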

How the data were processed

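RNA of 10 tumors, 5 of E and 5 of NE, was sequenced as paired-end libraries. The sample labels gave the groups and the replicate numbers. The study's methods name Hisat2 for alignment and Stringtie for expression. The methods name a rat assembly (Rnor 6.0), while the table carries mouse Ensembl identifiers, and its build is not named. For every tumor the authors deposited a whole-number read count per gene, not normalized, beside its FPKM, and each deposited FPKM equals the count over gene length and total count (largest relative deviation 3.77e-14). How the counts were made is not given in the sources used here.

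From the counts, differential expression and the slope on log2(CPM + 1) of Myc (pseudocount 1) were fitted over all genes with edgeR 4.0.16 (R 4.3.3), by its quasi-likelihood F-test on TMM-scaled counts after filterByExpr by group, with Benjamini-Hochberg adjustment. Genes were called at an FDR of at most 0.05, with a fold change of at least 2 counted as well, as in the study's methods. Myc was left out of the slope counts. The exact permutation test of Myc used scipy 1.17.1 in Python 3.11.15. The alternatives were DESeq2 1.42.0, library size without TMM, Myc scaled by library size, no filter, the skeletal muscle score or the group as a covariate, the replicate number as a block and leaving out each tumor. The counts of members at an unadjusted p of at most 0.05 and the GC content offset (20 bins of GC per tumor) were chosen after the data were seen. GC content, overlaps and snoRNA genes come from GENCODE M21 (GRCm38). Fits were tested on simulated data whose changes and slopes were larger than those of the members in the main fits. Recovery of changes as small as those of the members was not tested.

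The members, roles and gene lists were chosen with earlier results of these data known. Named members are the 6 with the smallest p in each direction of both fits, the 3 highest and 3 lowest by FPKM, those that did not pass the filter, and a list of core factors with known roles, with up to 3 genes of each other list. Gnl2, Imp3, Imp4, Nop10, Nxf3, Riok2, Gtpbp4, Rpp38 and the members named only at an unadjusted p were named after their values were seen. The study calls the sequenced tumors matched pairs, but neither it nor the labels say by what they were matched or that the replicate number marks the pair. The fits therefore carry no block, and the fit with the number as a block is given beside them where it moves a count or a call. The p-values compare a difference or a slope with the spread between these tumors. At 15045613 to 23092251 reads per tumor, the lowest tested members rest on few reads, and reads that are PCR copies could not be recognised.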

Additional observations from a re-analysis of the deposited data

Results flagged for a closer look

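In 7 of 88 groups of 5 tumors examined for the named members, Myc and the member median, 1 tumor stood apart from the others of its group by Dixon's criterion (a gap to the nearest tumor over 0.71 of the group's range), where chance gives about 4.4. The groups are not independent, since the genes come from the same tumors. NE1 stood high in Rcl1 (29.4 FPKM, next 25.2) and Tcof1 (26.7 FPKM, next 23.4). NE4 stood low in Nxt1 (20.4 FPKM, next 25.4) and high in Pop1 (8.83 FPKM, next 8.14). In E, E1 stood high in Ran (188 FPKM, next 168), and E4 stood low in Pop7 (9.77 FPKM, next 12.3) and high in Utp6 (18.4 FPKM, next 17.2). NE1 had the least and NE4 the most skeletal muscle RNA, and their part in these values was not tested.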

How the results depend on the processing

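The median log2 fold change of the members stayed negative in the 16 alternatives, from -0.11 to -0.060, and that of Myc from -0.16 to -0.022. For E against NE, DESeq2 called 3 genes, and 657 had an unadjusted p of at most 0.05, while 0 were called without any 1 tumor. For the slope on Myc, 247 genes were called by DESeq2, 1 with the group as a covariate, 1 with no filter, 1764 at an unadjusted p of at most 0.05, and 0 to 287 without 1 tumor, the 287 without E4 and none of them a member. Members lower in E at that p numbered 2 with library size without TMM and 1 to 11 without 1 tumor. Of all genes, 160 were lower in E at that p with library size without TMM and 166 to 557 without 1 tumor. Members with a positive slope at that p numbered 6 with the skeletal muscle score and 8 to 17 without 1 tumor. The shares of all genes with a positive slope in these fits are not given. The pairs that the study names are not tied to the replicate numbers in the sources used here. Same-numbered tumors had correlations of deviations from -0.325 to 0.316 and 1 of the 10 correlated best with its own number. Slopes with the replicate block rest on differences in Myc between same-numbered tumors, which were smaller than its range over all tumors. With the replicate block, no gene was called and the median slope of the members was 0.79. In those fits 9 members and 334 of all genes were lower in E and 19 members had a positive slope, all at that p. Slopes that turned positive with the replicate block were those of Mphosph10 (4.21), Pop5 (0.37), Rpp30 (1.80), Utp6 (1.25) and Xpo1 (2.37), with the muscle score those of Mphosph10 (0.017), Pop5 (0.011) and Utp6 (0.14), and with the GC content offset that of Mphosph10 (0.27). Without 1 tumor, the log2 fold change of Eif6 ran from -0.022 to 0.065, and the slopes from -0.48 to 0.34 for Mphosph10, -0.75 to 0.12 for Pop5, -0.21 to 0.024 for Utp6 and -0.36 to 0.059 for Xpo1. Of 408 values of named members under alternatives, 390 kept their sign and their side of the FDR, 17 changed sign and 1 (Nop56 by DESeq2) passed the FDR. These members were chosen for the smallest p in each direction, and none passed the FDR in the main fits. Most could be foreseen to keep their side of the FDR, so the 390 do not measure stability. The causes were not tested.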
